A study of Mus musculus with 7 samples.

Results

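The genes described here are 47 ligands, receptors, Smads, inhibitors and targets of TGF-beta and bone morphogenetic protein (BMP) signaling, measured in the mammary gland of PRA transgenic mice and their wild-type littermates. They were chosen by gene symbol, with earlier results of these data known. All 47 had a probe on the array, among 37074 gene names in all, and 46 were tested, among 22499 tested gene names. The member not tested was Smad9, whose gland signal was well above background on 1 wild-type array and on no PRA transgenic array. Of the tested members, 44 passed the filter on dim signals in both genotypes, while Bmp5 and Bmpr1b passed through the wild-type arrays and were well above background on 3 of 4 PRA transgenic arrays.

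In this pathway, dimeric ligands of the TGF-beta, activin and BMP families bring type II and type I receptor kinases together at the cell surface. The activated type I receptor phosphorylates receptor Smads, which join Smad4 and enter the nucleus, and the target genes include Id1 and the inhibitory Smads that dampen the same signal. TGF-beta is known in the mammary gland as a restraint on ductal growth, and BMP ligands act between its epithelium and stroma.

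The samples were 3 wild-type and 4 PRA transgenic mice, each an FVB female that had borne no young, 20 to 25 weeks old and in diestrus, with 1 abdominal gland per animal taken after its lymph nodes were cut out. PRA transgenics carried CMV-GAL-4 together with UAS-PR-A, which adds the A isoform of the progesterone receptor (PR) to the endogenous receptor. The CMV promoter is active in many cell types, so the transgene need not be restricted to mammary epithelium. Which cells of these glands express it is not given in the sources used here. RNA of the whole gland was labeled with Cy5 and hybridized against Universal Mouse Reference RNA from mouse cell lines, which was labeled with Cy3, and no dyes were swapped. A value below is the log2 ratio of gland to reference, which sets 1 gene against itself across animals and gives no order between genes. The log2 fold change is the PRA transgenic mean minus the wild-type mean.

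All 7 arrays lay on 1 slide, with wild-type in row 1 and PRA transgenic in row 2, so the effects of slide row and of genotype cannot be told apart. Gland signals were well above background for 62.6% to 66.1% of gene probes on wild-type and 56.6% to 60.2% on PRA transgenic arrays. The Cy3 reference, the same RNA on every array, was also lower on PRA transgenic arrays, at 47.2% to 50.6% against 53.2% to 54.0%. The lower share is thus not particular to the gland channel. Mean log2 ratios were 2.91 to 3.62 for the 8 luminal epithelial markers and 2.57 to 2.97 for the 7 basal markers. For the 5 white adipocyte markers they were 5.86 to 6.52. These list means were above the reference on every array, which does not hold for each marker alone. Each of these markers had a gland signal well above background on every array, so markers of the labelled tissue were present. Wild-type replicate 1 stood apart in lymphocyte markers, with a T cell list mean of 1.85 against -0.58 to 0.16 on the other arrays and a B cell list mean of 0.76 against -1.62 to -0.78. Skeletal muscle markers were high in wild-type replicates 1 and 3 and in PRA transgenic replicate 4 (2.16, 3.34 and 2.65) and at -0.94 to -0.65 elsewhere. In such bulk RNA, fewer cells of a type and less RNA per cell cannot be told apart. The brightest Pgr probe had a log2 fold change of -0.65 (SE 0.80, adjusted p = 0.859 from limma), with overlap of the genotypes. Its log2 ratio was 7.05, 4.30 and 4.04 in wild-type replicates 1 to 3 and 3.32 to 5.38 in PRA transgenic glands. At this probe the reference signal was dim on all arrays. From the gland channel alone, with array medians aligned, the log2 fold change was 0.03. Whether this probe detects the transgene transcript is not given in the sources used here.

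In PRA transgenic glands, 5 genes of the pathway were lower at an unadjusted P under 0.05 and at least 1.5-fold, the study's looser threshold: the ligand Bmp2, the type II receptor Acvr2a, the inhibitory Smad Smad7, and the target genes Id1 and Pmepa1. No member was higher at that threshold, although 2 members had an unadjusted P under 0.05 in that direction in limma and 2 in the methods' t-test. The 5 genes are 10.9% of the 46 tested members, against 2.54% of all tested genes called lower and 1.52% called higher. The members were chosen with earlier results of these data known, and the study already lists Bmp2 and Pmepa1 as lower. No member had an adjusted p under 0.05 in limma with Benjamini-Hochberg adjustment, where the lowest was 0.332 and 7 members had an unadjusted P under 0.05. Among all probes, 4 of 34284 (0.0117%) passed the adjusted threshold. The calls below are therefore calls at an unadjusted threshold.

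In 6 members every PRA transgenic array was below every wild-type array: the 5 genes above and Smad3. In 3 members, Nog, Bambi and Smurf1, every PRA transgenic array was above every wild-type array. These are 13% and 6.52% of the members, against 4.52% and 4.6% of all tested genes. The log2 fold change was negative for 30 members and positive for 16, with a median of -0.11, while 47.3% of all tested genes were negative and their median was 0.01. Whatever their P, 6 of the 44 members that passed the filter in both genotypes were at least 1.5-fold lower in PRA transgenics. Of the same 44, 0 were at least 1.5-fold higher. Over all tested genes, which include those that passed the filter through 1 genotype only, the shares were 5.73% and 3.5%. Bmp5 and Bmpr1b were also at least 1.5-fold lower, but they passed the filter through the wild-type arrays and so are not counted among the 44.

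**Figure D1:**
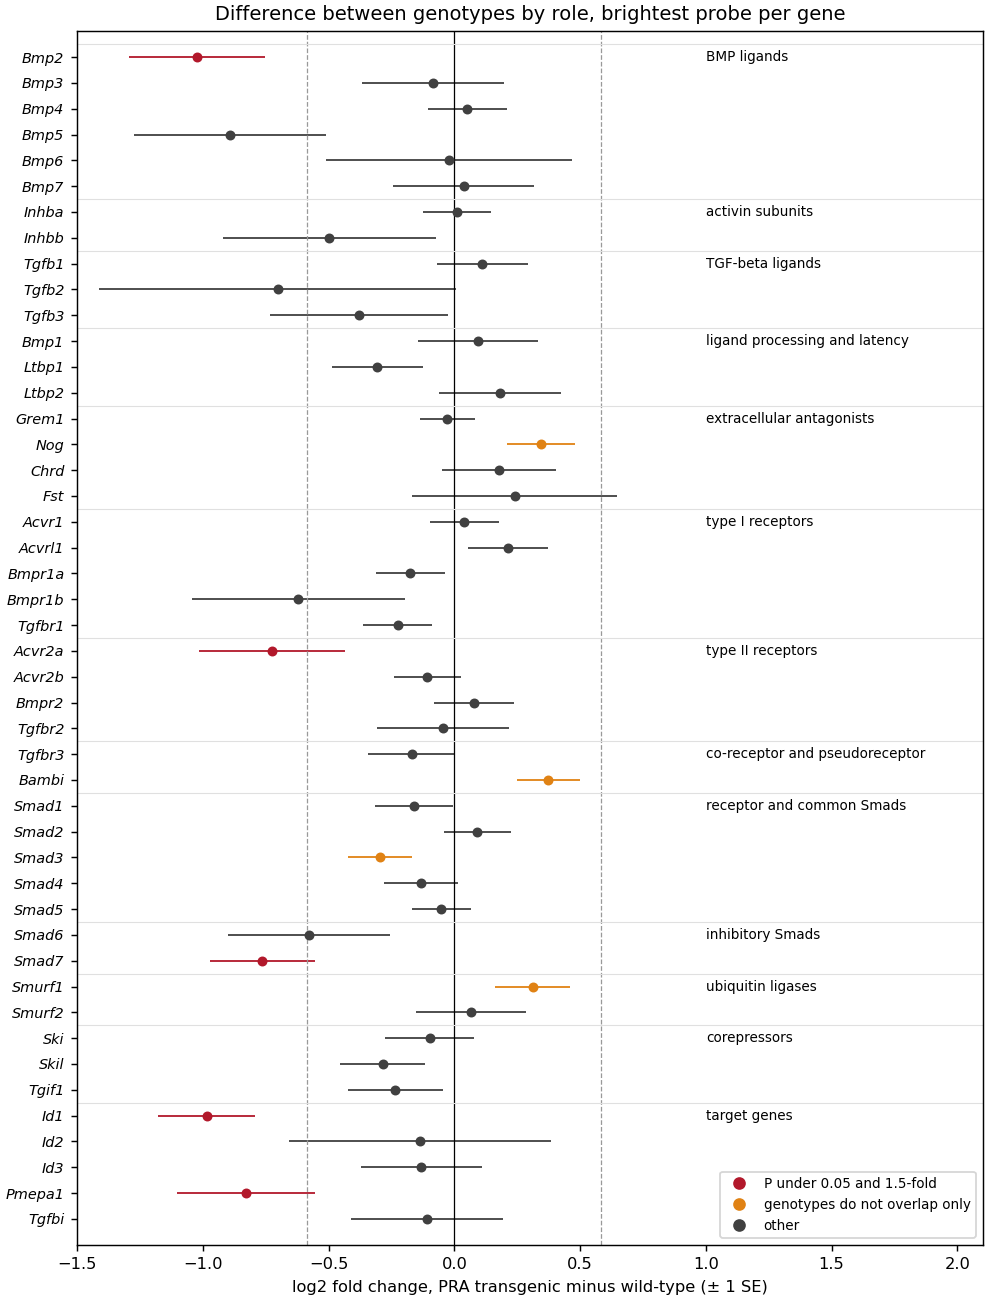
Log2 fold change (PRA transgenic minus wild-type, horizontal axis) of the 46 tested members by role, with bars of 1 SE from limma and dashed lines at 1.5-fold. The 5 genes past the threshold, in red, lie on the lower side and belong to ligands, type II receptors, inhibitory Smads and targets, while no gene reaches 1.5-fold on the higher side.

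Among the target genes, Id1 showed the clearest separation. Id1, a helix-loop-helix protein that lacks a DNA-binding domain and is a direct BMP target, was measured by a probe on chromosome 2 (mm9, 152563083 to 152563142). Its log2 ratio was -0.98, -1.26 and -0.93 in wild-type replicates 1 to 3 and -1.89, -2.39, -1.70 and -2.18 in PRA transgenic replicates 1 to 4. The genotypes did not overlap, and the means were -1.06 ± 0.17 (SD, n = 3) and -2.04 ± 0.30 (SD, n = 4). The log2 fold change was -0.98 (SE 0.19, adjusted p = 0.332 from limma), or 1.98-fold lower in PRA transgenics. It was past the threshold under all 17 alternatives tried, at -1.10 to -0.87, with adjusted p from 0.226 to 0.569 in limma or the methods' t-test.

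Pmepa1, a membrane protein induced by TGF-beta that binds receptor Smads, was also lower. On chromosome 2 (mm9, 173053319 to 173053378), its log2 ratio was 2.02, 2.21 and 2.36 in wild-type and 1.67, 0.90, 0.99 and 1.91 in PRA transgenic glands. PRA transgenic replicates 2 and 3 lay about 1 log2 unit below replicate 4, which was just under the lowest wild-type gland. Its log2 fold change of -0.83 (SE 0.27, adjusted p = 0.463 from limma) was past the threshold, and the call was lost without wild-type replicate 3 (-0.74). Pmepa1 and Bmp2 are also named in the study's text, which drew on these same samples, so their direction is no independent evidence. From these samples the study also reports a TGF-beta signaling gene set as lower in PRA transgenics. A lower direction of the members is therefore no independent evidence on that set.

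The other 3 target genes had negative values of small size. Id2 (-0.14, SE 0.52) and Id3 (-0.13, SE 0.24) are close relatives of Id1, and Tgfbi (-0.11, SE 0.30) encodes a secreted matrix protein induced by TGF-beta. Id2 ranged from -1.14 to 0.53 in wild-type and from -1.47 to -0.02 in PRA transgenic glands, and most of the glands lay in the shared range. Thus all 5 targets had a negative log2 fold change at the brightest probe, 2 of them past the threshold, with a list median of -0.14. The dimmer Id2 probe went the other way at 0.16 (SE 0.33). Tgfbi turned positive (0.04) with quantile normalization and Id2 (0.41) without wild-type replicate 3. Both also turned without PRA transgenic replicate 1, Tgfbi without wild-type replicate 2, Id2 with the median over its probes, and Id3 without PRA transgenic replicate 2.

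The inhibitory Smads, Smad6 and Smad7, block receptor Smads at the receptor and are themselves induced by the pathway. The brightest Smad7 probe gave log2 ratios of -1.01, -0.82 and -0.41 in wild-type and -1.46, -1.53, -1.87 and -1.19 in PRA transgenic glands, without overlap. Its log2 fold change was -0.76 (SE 0.21, adjusted p = 0.412 from limma), 1.70-fold lower in PRA transgenics. The second Smad7 probe, with dimmer signal, had a log2 fold change of -0.00 (SE 0.23), so the probes of this gene disagreed, and the median over both (-0.38) did not pass the threshold.

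Smad6 was at -1.19, -0.21 and -0.25 in wild-type and at -1.002, -1.25, -1.64 and -0.61 in PRA transgenic glands. The genotypes overlapped, since wild-type replicate 1, the gland with high lymphocyte markers, lay among the PRA transgenic glands. Smad6 had a log2 fold change of -0.58 (SE 0.32, adjusted p = 0.651 from limma), which did not pass the threshold. It passed in the gland channel alone over all 7 arrays (-0.74) and without wild-type replicate 1 (-0.90). The part of the lymphocyte markers in this was not tested.

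The Smad6 promoter is shown because it alone among the members' RefSeq promoter windows held the Smad palindrome. RefSeq windows of GRCm38.p6, 300 bases long and reaching from 250 before to 50 after each start, matched 31 members with 41 windows. The Smad6 window is chr9:64022010-64022309 on the minus strand, and its first 270 bases are printed with the palindrome GTCTAGAC and the steroid receptor hexamer AGAACA (here as its reverse complement TGTTCT) in capitals. The Acvr2a window, chr2:48813859-48814158 on the plus strand, is shown beside it as the window of a gene past the threshold, and it held none of the 5 motifs searched.
Smad6: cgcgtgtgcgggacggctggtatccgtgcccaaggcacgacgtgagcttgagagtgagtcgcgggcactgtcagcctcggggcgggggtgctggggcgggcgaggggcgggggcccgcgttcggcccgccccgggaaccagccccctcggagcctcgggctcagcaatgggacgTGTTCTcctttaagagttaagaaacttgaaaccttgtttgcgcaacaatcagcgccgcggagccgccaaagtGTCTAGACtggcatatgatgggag
Acvr2a: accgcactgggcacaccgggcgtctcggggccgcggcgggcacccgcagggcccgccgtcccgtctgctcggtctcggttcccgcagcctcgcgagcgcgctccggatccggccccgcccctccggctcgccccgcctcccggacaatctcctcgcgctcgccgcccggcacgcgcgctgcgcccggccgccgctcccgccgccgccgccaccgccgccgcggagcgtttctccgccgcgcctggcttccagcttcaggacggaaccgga

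Each motif was searched on both strands, and a match describes letters, not a bound site. GTCTAGAC was in 0.213% of all 32851 windows and in 1 of the 41 member windows. CAGACA, the core of the Smad3 and Smad4 binding element, was in 21.0% of all windows and in 10 member windows, and the GC-rich hexamer GGCGCC was in 11.9% and in 12. TGACGTCA, the full cyclic AMP response element, was in 1.79% of all windows and in 1 member window, that of Ltbp1. AGAACA was in 19.0% of all windows and in 4 member windows, those of Bmpr2, Inhbb, Smad6 and Tgif1. The members past the threshold without a window in the table were Bmp2, Id1, Pmepa1 and Smad7.

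Of the 6 BMP ligands, Bmp2 was past the threshold and the others were not. Bmp2, a ligand that acts through the BMP type I receptors, was read on chromosome 2 (mm9, 133388260 to 133388319) at 5.57, 5.75 and 4.87 in wild-type and 4.60, 3.99, 4.19 and 4.71 in PRA transgenic glands. The genotypes did not overlap, although wild-type replicate 3 lay within 0.2 of PRA transgenic replicate 4. Bmp2 had a log2 fold change of -1.02 (SE 0.27, adjusted p = 0.405 from limma), 2.03-fold lower in PRA transgenics. The reference was not well above background for Bmp2 on any array, and on 6 arrays its value was a surrogate that the scanner software puts in place of a dim signal. In the gland channel alone, with array medians aligned, the log2 fold change was -0.40 and did not pass the threshold.

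The remaining BMP ligands showed larger spread between animals or small differences. Bmp5 was at 2.64, 3.57 and 2.66 in wild-type and at 1.54, 1.55, 2.48 and 2.70 in PRA transgenic glands, with PRA transgenic replicate 4 above 2 of the wild-type glands. Its log2 fold change was -0.89 (SE 0.38, adjusted p = 0.556 from limma), which became -0.31 in the gland channel alone, and its reference was also dim on all arrays. Bmp3, a BMP family member that opposes other BMPs, had -0.08 at the brightest probe, -0.72 in the gland channel alone, and -1.21 (SE 0.69) and -0.76 (SE 0.39) at its other 2 probes. Bmp4, Bmp6 and Bmp7 had log2 fold changes of 0.05, -0.02 and 0.04.

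No TGF-beta ligand or activin subunit passed the threshold. Tgfb2 (-0.70, SE 0.71) ranged from -2.07 to 0.43 in wild-type and from -2.66 to -0.50 in PRA transgenic glands, with wild-type replicate 3 highest, and without that gland the log2 fold change was 0.04. Tgfb3, a ligand linked to milk stasis and involution, was at 1.32, 2.30 and 2.25 in wild-type and 1.11, 1.75, 1.21 and 2.24 in PRA transgenic glands (log2 fold change -0.38, SE 0.35). The value for Tgfb1, the most studied ligand of the family, was 0.11 (SE 0.18). The activin subunit gene Inhbb had -0.50 (SE 0.42), with PRA transgenic replicates 2 and 3 at 2.05 and 1.89 and replicates 1 and 4 at 2.98 and 3.57, and Inhba had 0.01.

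Genes that process, store or trap the ligands differed little. Bmp1, a metalloproteinase that cleaves chordin, had a log2 fold change of 0.09, and the latent TGF-beta binding proteins Ltbp1 and Ltbp2 had -0.31 and 0.18. Of the 4 extracellular antagonists, 3 had positive values, while Grem1 was at -0.03, which turned positive (0.07) with quantile normalization. Noggin (Nog) binds BMPs and keeps them from their receptors. Its log2 ratio was 0.31, 0.09 and 0.29 in wild-type and 0.73, 0.69, 0.47 and 0.41 in PRA transgenic glands, so the genotypes did not overlap. For Nog the log2 fold change was 0.34 (SE 0.13, adjusted p = 0.524 from limma). Chrd, another BMP trap, had 0.18, and Fst, which traps activin, had 0.24 (SE 0.41) with PRA transgenic replicate 2 at 0.61 and the other 3 PRA transgenic glands at 1.56 to 1.59. Without wild-type replicate 3, Chrd (-0.04) and Fst (-0.18) were negative.

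Bambi, a pseudoreceptor without a kinase domain that dampens BMP and TGF-beta signals, had the largest positive value among the members at the brightest probe. Its log2 ratio was 1.69, 1.90 and 1.87 in wild-type and 2.02, 2.28, 2.30 and 2.18 in PRA transgenic glands. The groups did not overlap, and the log2 fold change was 0.37 (SE 0.13, adjusted p = 0.463 from limma). For Bambi and Nog the difference was mostly in the reference channel. Before alignment of the arrays, the Cy3 signal of Bambi was lower on PRA transgenic arrays by a log2 value of -0.49 and its Cy5 signal by -0.12. The same values for Nog were -0.51 and -0.16, against medians over all tested probes of -0.22 in Cy3 and -0.20 in Cy5. In the gland channel alone the log2 fold change was 0.08 for Bambi and 0.04 for Nog.

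**Figure D2:**
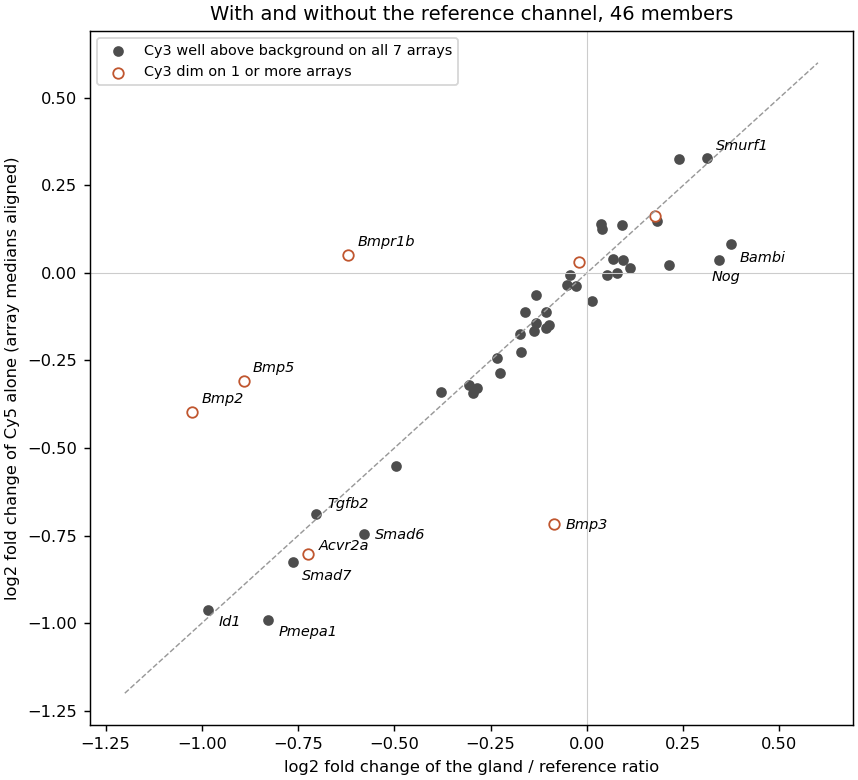
Log2 fold change of the gland to reference ratio (horizontal axis) against that of the gland channel (Cy5) alone with array medians aligned (vertical axis) for the 46 tested members. Open circles have a Cy3 reference that was not well above background on 1 or more of the 7 arrays, and the dashed line marks equal values. Id1, Pmepa1, Smad7 and Acvr2a lie near the line at -0.72 or below in the ratio, while Bmp2, Bmp5, Bmpr1b, Bambi and Nog are nearer to 0 without the reference.

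Of the receptors, Acvr2a was past the threshold. It encodes an activin type II receptor that also binds BMPs. Its brightest probe, on chromosome 2 (mm9, 48758259 to 48758318), gave log2 ratios of 1.80, 2.64 and 1.64 in wild-type and 1.59, 0.82, 1.40 and 1.41 in PRA transgenic glands. The highest PRA transgenic gland lay just under the lowest wild-type gland, and wild-type replicate 2 was well above the rest. The log2 fold change was -0.72 (SE 0.29, adjusted p = 0.530 from limma). Without wild-type replicate 2 it was -0.42, and the call was kept in 9 of the 16 alternatives that gave a value. The call was also lost in turn without PRA transgenic replicate 2 (-0.56), replicate 3 (-0.76) or replicate 4 (-0.76). The other 2 Acvr2a probes, both dimmer, had log2 fold changes of 0.14 (SE 0.24) and -0.40 (SE 0.42).

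The other type II receptors, Acvr2b, Bmpr2 and Tgfbr2, had log2 fold changes of -0.11, 0.08 and -0.04. Among type I receptors, Bmpr1b, a BMP receptor used in mammary development, was at 2.67, 2.53 and 3.26 in wild-type and 1.05, 2.67, 2.55 and 2.54 in PRA transgenic glands. Its log2 fold change of -0.62 (SE 0.42) came with 1 low PRA transgenic gland, replicate 1, and was 0.05 in the gland channel alone. Acvr1, Acvrl1, Bmpr1a and Tgfbr1, the remaining type I receptors, had values from -0.23 to 0.21. Acvrl1, found mostly in endothelium, was highest in PRA transgenic replicate 4 (3.50). The co-receptor Tgfbr3, or betaglycan, which presents TGF-beta 2 to its receptors, had -0.17 (SE 0.17).

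The receptor and common Smads had small differences, with 4 of the 5 tested being negative. Smad3, which carries TGF-beta and activin signals, was at -0.46, -0.56 and -0.23 in wild-type and at -0.65, -0.69, -0.83 and -0.69 in PRA transgenic glands. The genotypes did not overlap, and the log2 fold change of -0.30 (SE 0.13, adjusted p = 0.554 from limma) was under 1.5-fold. Smad1, Smad2, Smad4 and Smad5 had -0.16, 0.09, -0.13 and -0.05 at their brightest probes. The dimmer of the 2 Smad5 probes had 0.42 (SE 0.13), with every PRA transgenic gland above every wild-type gland.

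The ubiquitin ligases Smurf1 and Smurf2, which mark Smads and receptors for degradation, both had positive values. Smurf1 was at -0.06, -0.18 and -0.53 in wild-type and at 0.19, -0.04, 0.10 and -0.03 in PRA transgenic glands, which did not overlap but came within 0.03 of each other. Its log2 fold change was 0.31 (SE 0.15, adjusted p = 0.599 from limma), and 0.33 in the gland channel alone. Smurf2 had 0.07. The corepressors Ski, Skil and Tgif1, which silence Smad target genes, had -0.10, -0.28 and -0.23, and no corepressor was called. A dimmer Skil probe went the opposite way at 0.45 (SE 0.17).

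**Figure D3:**
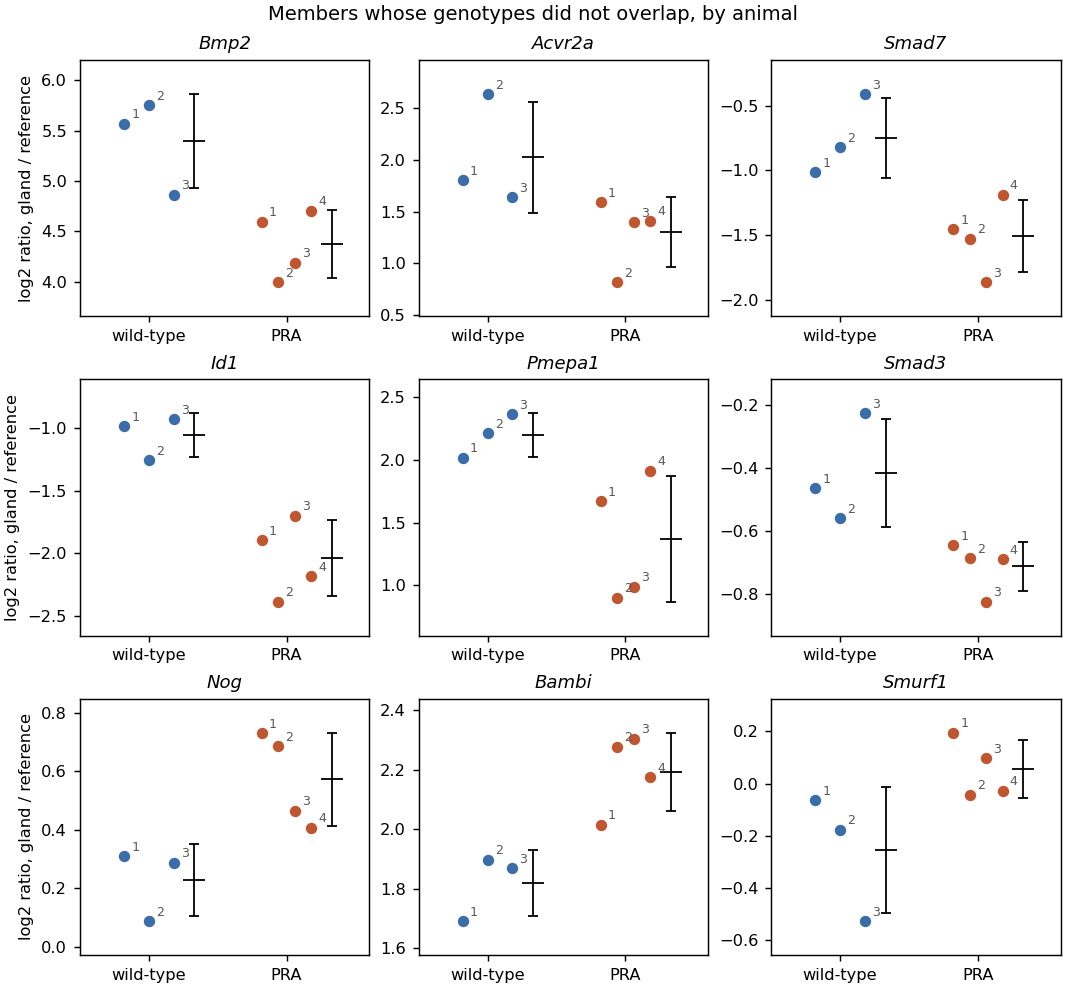
Log2 ratio of gland to reference (vertical axes, a scale for each gene) in the 3 wild-type and 4 PRA transgenic animals for the 9 members whose genotypes did not overlap. Numbers are replicates, and the bars beside the points are the mean and 1 SD. Id1 leaves the widest gap between genotypes, and Acvr2a, Smurf1 and Smad3 leave narrow ones.

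Of the 46 tested members, 22 had more than 1 tested probe, and in 10 of these the probes had log2 fold changes of different sign. Disagreement reached the genes past the threshold in Smad7 and Acvr2a, while Bmp2, Id1 and Pmepa1 each rested on 1 tested probe. Bmp3 had the widest range between probes, at 1.12. A dim Tgif1 probe was well above background on every wild-type array and on no PRA transgenic array, so it has only a bound there.

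**Figure D4:**
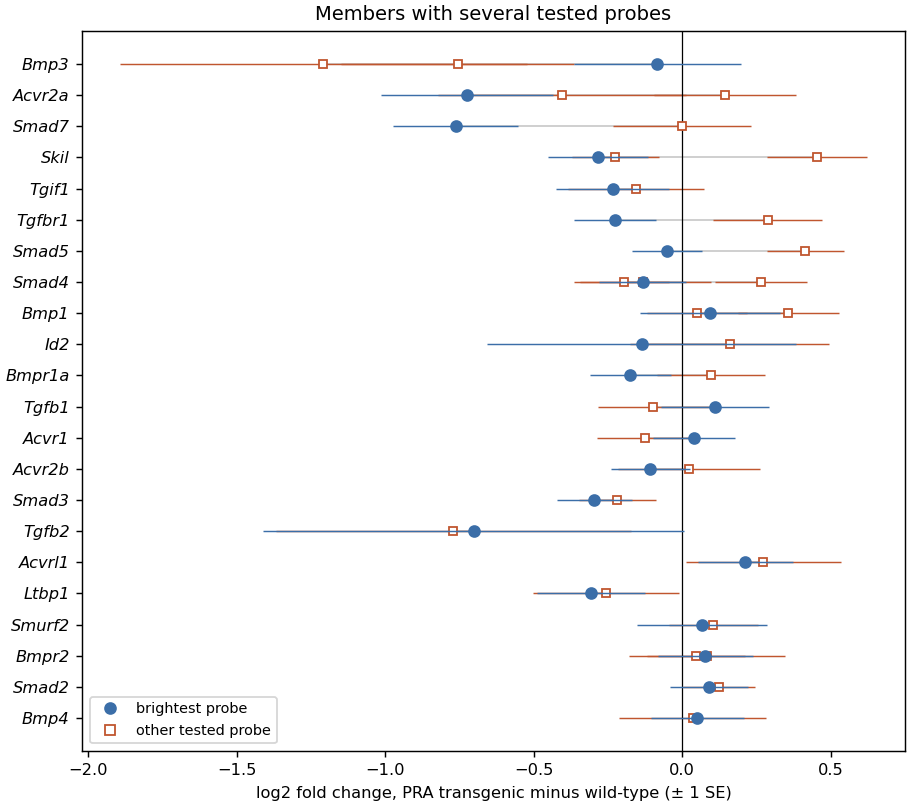
Log2 fold change (PRA transgenic minus wild-type, horizontal axis, bars of 1 SE) of each tested probe for the 22 members with several, ordered by their range. Filled circles are the brightest probe and open squares the others, and the Tgif1 probe that has only a bound is left out. The probes of Bmp3, Acvr2a, Smad7, Skil, Tgfbr1 and Smad5 lie far apart, and those of Bmp4, Smad2 and Bmpr2 nearly coincide.

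The glands within a genotype also differed across the members. The median SD of the members was 0.25 in wild-type and 0.26 in PRA transgenic glands, against a median absolute log2 fold change of 0.18. PRA transgenic replicate 4, the transgenic gland with high muscle markers, had the highest ratio of the 4 transgenic glands in 22 of 46 members and the lowest in 4. With wild-type replicate 1 and PRA transgenic replicate 4 both left out, an alternative chosen after seeing the data, 7 members were called lower and none higher, against 3.96% of all tested genes lower and 3.19% higher. The 7 were Bmp2, Bmp5, Id1, Pmepa1, Smad6, Smad7 and Tgfb3, so Acvr2a was not called, at a log2 fold change of -0.87. In this smaller comparison, in which overlap is less likely, 14 members lay lower without overlap and 3 higher, against 13.2% and 15.3% of all tested genes.

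Several immediate-early genes, which respond within minutes to growth factors, were also lower in PRA transgenics. The called members were picked for being lower, so any list lower in PRA transgenics shares their direction. Whether the called members and the immediate-early genes vary together across animals was not tested. Of 12 in the list, all tested, 7 were lower at the same threshold (Dusp1, Egr1, Egr2, Egr3, Fos, Junb and Nr4a1) and none was higher. The shares over all tested genes were 2.54% lower and 1.52% higher. In 6 of the 12 every PRA transgenic array was below every wild-type array, against 4.52% of all tested genes. Egr1, Egr3, Fosb, Ier2, Junb, Nr4a1 and Zfp36 are also named in the study's text. It drew on these same samples, so their direction is no independent evidence. The list mean was -1.31 to -0.84 in wild-type and -2.04 to -1.78 in PRA transgenic glands, without overlap. Their part in the lower values of Id1, Smad7, Pmepa1, Bmp2 and Acvr2a was not tested.

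**Figure D5:**
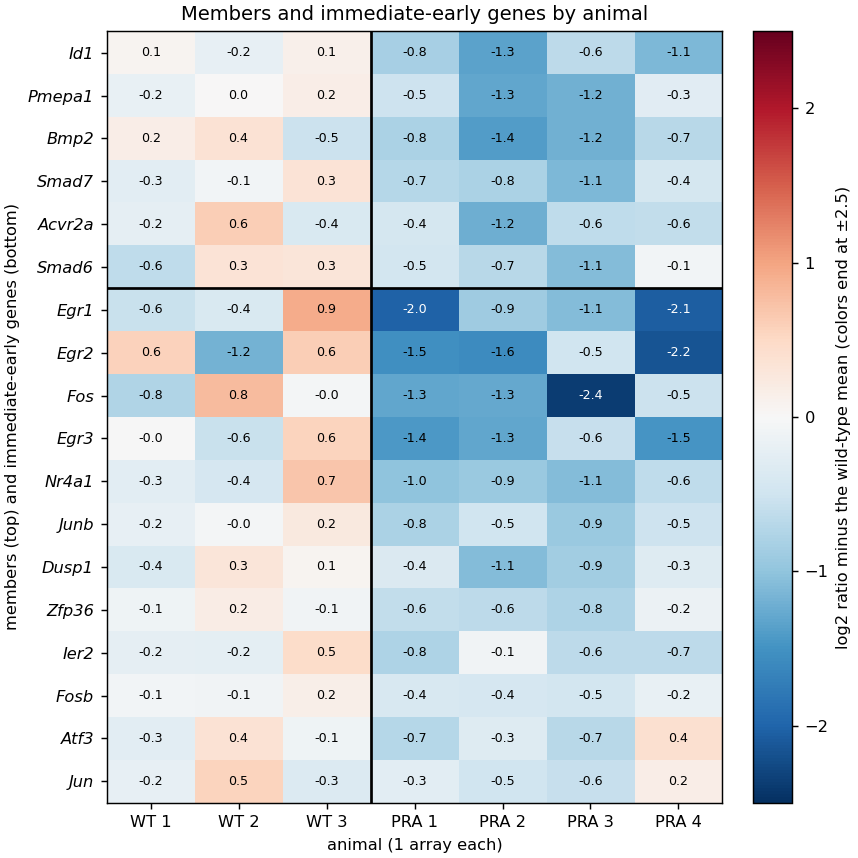
Log2 ratio minus the wild-type mean (color, with the value in each cell) by animal for 6 members and the 12 immediate-early genes. The 4 PRA transgenic columns are below 0 for all 6 members and for most of the immediate-early genes, with Jun and Atf3 above 0 in PRA transgenic replicate 4.

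Other genes of the pathway, from a list of 62 of which 50 were tested, had 3 called lower and 1 called higher, against the same 2.54% and 1.52% of all tested genes, with a median log2 fold change of -0.11. Gdf10, a BMP-like ligand, was at 8.15, 7.71 and 7.16 in wild-type and at 6.36, 6.26, 6.89 and 7.02 in PRA transgenic glands. Its log2 fold change was -1.04 (SE 0.29, adjusted p = 0.412 from limma), and its reference was dim on every array, with -0.49 in the gland channel alone. Gdf9, a ligand best known from the oocyte, had -0.95 (SE 0.25, adjusted p = 0.405 from limma), also without overlap. Thbs1, a matrix protein that activates latent TGF-beta, had -1.45 (SE 0.60, adjusted p = 0.542 from limma), with overlap of the genotypes. Zfyve9, or SARA, which brings Smads to the receptor, had 0.64 (SE 0.24, adjusted p = 0.509 from limma) and was the gene called higher, while its other tested probe had 0.14 (SE 0.19) and was not called. Ctgf, a secreted matrix protein induced by TGF-beta, had -0.76 (SE 0.54) and was not called.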

How the data were processed

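RNA of 7 mammary glands (3 wild-type, 4 PRA transgenic) was measured on Agilent arrays with 2 colors. The authors deposited, for each array, intensity values of Agilent Feature Extraction 12.0 that were background-subtracted, spatially detrended and dye-normalized, with surrogates for dim signals. The deposited series table holds log2 ratios, and these matched the log2 ratio of the processed intensities centered for each probe (99.9% of probes within 0.05). Groups came from the sample labels.

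Control and outlier spots were dropped, and log2 Cy5 over Cy3 was averaged over the spots of each probe. Probes were kept where all arrays of 1 genotype or of both had Cy5 well above background, which left 34284 of 56605 probes. The genotypes were compared in R 4.3.3 with limma 3.58.1 (lmFit, then eBayes), and p-values were adjusted by Benjamini-Hochberg over all kept probes. The brightest kept probe in Cy5 stood for a gene, and a gene was called at P under 0.05 and 1.5-fold. These steps were tested on simulated data. No gene spot was saturated. Precision is limited by how many arrays there were. Positions of probes are given on mm9, as in the files, and promoter windows are RefSeq's, on GRCm38.p6.

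The members, the role groups, the marker lists and the list of other pathway genes were chosen with earlier results of these data known. Values per array were given for members past the threshold, members with genotypes that do not overlap at 1.5-fold or an outlying array, and Bmp2 and Pmepa1. Smad3, Smad6, Nog, Bambi, Smurf1, Bmp5 and Tgfb3 were added after their values were seen. Alternatives were normexp (offset 50) with loess, the series table, no filter, a filter on both channels, quantile normalization, Cy5 alone, the methods' t-test, a replicate block, leaving out each array and the median over a gene's probes.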

Additional observations from a re-analysis of the deposited data

Results flagged for a closer look

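In the PRA transgenic group of 4, 2 members had an array far from the other 3 by Dixon's criterion, which compares the gap at the end of a group with its range. For Fst the lowest array was PRA transgenic replicate 2, and the gap was 0.977 of the range. For Bmpr1b it was PRA transgenic replicate 1, at 0.919 of the range, and its Cy3 reference was dim on all arrays. Of 46 such groups examined, chance at 1 in 20 would give 2.3.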

How the results depend on the processing

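The median over members stayed negative under every alternative, from -0.21 to -0.04. The number of members called lower, 5, was 3 with both channels required to be well above background on all arrays, where 39 members were tested, and 4 to 7 otherwise. No alternative called a member higher. Probes with an adjusted p under 0.05, 4 by limma, numbered 15 with no filter on dim probes, 1 by the methods' t-test, and 1 to 12 with an array left out: 2 without wild-type replicate 3, 1 without PRA transgenic replicate 3 and 12 without PRA transgenic replicate 4. With wild-type replicate 1 and PRA transgenic replicate 4 both left out there were 0, and 17 members (37% of 46, against 28.5% of all tested genes) had genotypes that did not overlap. Over all genes, 572 were called lower, against 161 with normexp and loess, 1394 with no filter, 165 with the filter on both channels, 352 by the t-test and 890 with both arrays left out. Of genes called higher there were 341, against 79, 677, 116, 215 and 718 in the same order, and 635 without PRA transgenic replicate 4.

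Bmp2 was not called with normexp and loess (-0.46). The sign turned for Grem1 with quantile normalization (0.069), and for Smad5 (0.18) and Tgfbr1 (0.032) with the median over probes. Counting changes smaller than the spread between animals too, 22 members turned sign under 1 or more alternatives and 24 under none. Of members at least 1.5-fold lower, those that turned were Bmpr1b, with normexp and loess and in Cy5 alone (0.05), and Tgfb2, without wild-type replicate 3. Replicate numbers did not pair the animals: deviations of same-numbered animals correlated at 0.10, -0.30 and 0.04. With the replicate block, which drops PRA transgenic replicate 4, no probe (0) had an adjusted p under 0.05 in limma, 6 members were called lower and the median was -0.19. The slide as a block was not run, since there was 1 slide. The causes of these changes were not tested. The 7 arrays and the dim Cy3 reference limit the values for Bmp2, Bmp5, Bmp6 and Bmpr1b.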

Other observations

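Of the 5 members past the threshold, 4 (Bmp2, Acvr2a, Id1 and Pmepa1) lie on chromosome 2, which holds 7 of the 46 tested members. Over all tested genes, 42 of 1756 on chromosome 2 were called lower (2.39%), against 530 of 20743 elsewhere or without a position (2.56%). The other tested members on that chromosome, Bmp7, Grem1 and Acvr1, had log2 fold changes of 0.04, -0.03 and 0.04. This was noticed after the values were seen and was given no test.

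Relative to the reference pool of cell lines, 27 members were above and 19 below it in wild-type glands. Among other genes of the pathway, Rgma, a BMP co-receptor, was at 0.68, 0.92 and 0.74 in wild-type and at 0.24, 0.24, 0.30 and 0.50 in PRA transgenic glands, without overlap, with a log2 fold change of -0.46 (SE 0.13, adjusted p = 0.412 from limma). Its other tested probe had 0.19 (SE 0.18), with overlap.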
